A study of Homo sapiens with 12 samples.

Results

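HBEGF, AREG, EREG, TGFA, EGFR, ERBB2, ERBB3, ERRFI1 and LRIG1 make up a compact set of ligands, receptors and inhibitors around the epidermal growth factor (EGF) receptor. These 9 symbols were listed by name, with no cutoff on their measured values but with earlier results of these data known, and all 9 were found among the 24180 gene symbols of the count tables of all 12 libraries. RNA was sequenced from 143B cells, an established human osteosarcoma line. The libraries fall into 4 groups of 3 named M-BSG-Hot, M-BSG, BSG and NC. NC is the control, and the study's title concerns a borosilicate bioactive glass and heating of tumours by a magnetic field. The sample titles tie M-BSG to a material called 5-MNP-BSG and M-BSG-Hot to 5-MNP-BSG with a plus sign. The genotype of all 12 samples is given as WT, and DMEM plus fetal bovine serum is the culture medium throughout. The same treatment text, naming 5-MNP-BSG and an alternating magnetic field, stands on every sample including NC, so the labels do not give the material, field, dose or time of each group. No label ties the 3 libraries of a group to separate cultures, so p-values measure only the spread between these libraries, which may be technical.

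The EGF receptor family consists of cell surface tyrosine kinases that pair after a ligand binds and then activate the RAS to ERK and PI3K to AKT relays. The ligands are made as membrane-anchored precursors that metalloproteases of the ADAM family release. Signalling also switches on its own brakes, among them ERRFI1 (also called MIG6), which binds the kinase domain of the receptors, and LRIG1, a transmembrane protein that lowers receptor levels.

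Sequences before the annotated starts were taken from a table of RefSeq sequence of assembly GRCh38.p14, in which 8 of the 9 genes were matched; that of ERBB3 was not used here. The 250 bases before the annotated start are shown for HBEGF and ERRFI1, the 2 genes of the set called higher than in NC below, and for AREG, the ligand whose window held the most of the searched motifs. Capitals mark motif matches. The HBEGF window lies at chr5:140346604-140346853 on the minus strand, the ERRFI1 window at chr1:8026310-8026559 on the minus strand and the AREG window at chr4:74444886-74445135 on the plus strand.
HBEGF: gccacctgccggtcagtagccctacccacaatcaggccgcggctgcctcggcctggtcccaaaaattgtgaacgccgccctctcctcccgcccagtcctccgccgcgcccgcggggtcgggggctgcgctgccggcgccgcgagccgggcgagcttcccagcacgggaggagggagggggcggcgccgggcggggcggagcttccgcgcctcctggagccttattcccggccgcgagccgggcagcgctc
ERRFI1: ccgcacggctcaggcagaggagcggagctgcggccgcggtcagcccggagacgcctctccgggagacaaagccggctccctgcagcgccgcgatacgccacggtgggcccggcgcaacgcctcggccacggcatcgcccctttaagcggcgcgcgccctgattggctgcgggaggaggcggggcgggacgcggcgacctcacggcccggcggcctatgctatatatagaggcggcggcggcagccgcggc
AREG: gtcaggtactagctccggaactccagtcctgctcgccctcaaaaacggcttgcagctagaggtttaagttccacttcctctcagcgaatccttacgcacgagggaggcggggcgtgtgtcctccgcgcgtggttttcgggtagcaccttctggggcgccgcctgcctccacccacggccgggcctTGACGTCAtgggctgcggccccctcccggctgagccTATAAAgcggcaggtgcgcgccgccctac
Both strands were searched for an AP-1 site (TGACTCA), a cAMP response element (TGACGTCA), an EGR site (GCGGGGGCG), a CArG box and a TATA box (TATAAA). A CArG box, a run of A or T letters between CC and GG, can contain the TATA box. No other motif of the 5 contains another. The HBEGF and ERRFI1 windows held no match, and their G and C content was 76.4% and 75.2%. Only the exact letters TATAAA were searched as a TATA box. The letters tatatata near the end of the ERRFI1 window were therefore not counted, so a TATA element there is not excluded. The AREG window, with 65.2% G and C, held a cAMP response element beginning at position -65 and a TATA box at -29, counted back from the start of the gene. EREG held a TATA box at -32. No match stood in the windows before ERBB2, before either annotated start of TGFA or before the upstream start of EGFR, while the downstream start of EGFR and the last of 4 starts of LRIG1 each had 2 AP-1 sites, beside 2 TATA boxes at -146 and -36 before the downstream EGFR start. Over the 35116 windows of this length in the table, 4.20% held the AP-1 site, 1.65% the cAMP response element, 4.72% the EGR site, 1.16% the CArG box and 10.7% the TATA box. A match is a description of letters and not evidence of binding.

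Libraries held 34434993 to 38163152 counts, and 15407 genes, including all of the set except EREG, passed the filter on low counts. Chi-square statistics of the counts of 2 libraries, divided by their degrees of freedom, were at most 9.91 among NC libraries. BSG 1 and M-BSG 1 stood apart: replicates 1 and 2 gave 60.9 in BSG and 56.2 in M-BSG, replicates 2 and 3 gave 7.48 and 8.27. In M-BSG-Hot replicates 1 and 3 gave 40.4, 1 and 2 gave 15.4 and 2 and 3 gave 17.8, so replicate 2 lay between. M-BSG-Hot 3 is counted below with BSG 1 and M-BSG 1 as the 3 libraries that stood apart, for the traits given next. In the same 3 libraries long genes had relatively lower counts and ribosomal protein genes took a larger share of counts (9.89% to 11.4%, against 7.57% to 9.20% in the other 9). Markers of mesenchymal and osteosarcoma cells summed to 3980 to 5120 CPM per library, mostly VIM. CPM denotes counts relative to the library total after TMM scaling. Of the 9 markers found in the tables, 7 reached 1 CPM in every group, while the osteoblast markers BGLAP and SP7 were at or near 0. Of 9 listed epithelial markers 8 were in the tables. The keratins KRT8 and KRT18 and the surface marker EPCAM were present, at group means of 348 to 380, 889 to 1088 and 14.7 to 18.7 CPM. CLDN4 had 0.923 to 1.17 CPM. The epithelial cadherin CDH1 was at or under 0.0829 CPM, and KRT5, KRT19 and CLDN7 were at or under 0.0631, 0.292 and 0.244 CPM.

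Compared per gene length, in the FPKM values deposited by the authors, the set ran from abundant to nearly absent. Averaged over the 12 libraries, ERRFI1 stood highest at 49.6 FPKM, followed by EGFR at 21.9, HBEGF at 15.6, LRIG1 at 7.88, ERBB2 at 4.87 and TGFA at 1.07 FPKM. AREG, ERBB3 and EREG averaged 0.251, 0.0908 and 0.00621 FPKM. ERRFI1 lay at the 95.3rd percentile of all 24180 genes and EREG at the 15.9th. HBEGF was thus the main ligand transcript and EGFR the main receptor transcript of the set in these cells: EGFR made up 72.9% to 84.7% of the summed FPKM of EGFR, ERBB2 and ERBB3 in every library.

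**Figure D1:**
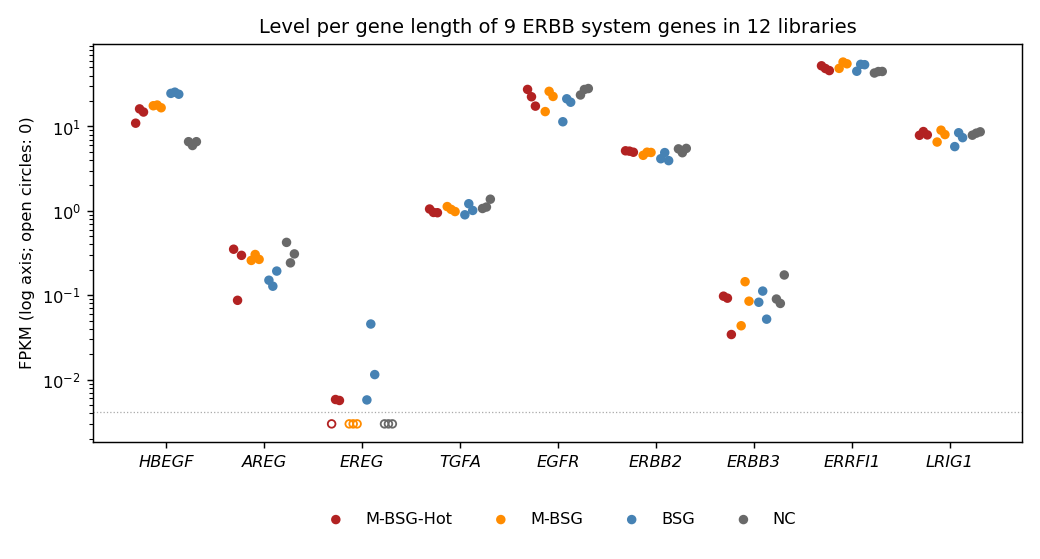
Deposited FPKM on a log axis for the 9 genes in each of the 12 libraries, coloured by group, with values of 0 as open circles at the foot. HBEGF lies at 10.9 to 25.5 FPKM in the treated libraries against 5.95 to 6.60 FPKM in NC, while ERBB3, AREG and EREG stay at or under 0.424 FPKM in every library.

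HBEGF encodes heparin-binding EGF-like growth factor, a ligand of EGFR and of the related receptor ERBB4. Among the 8 tested genes of the set it had the largest fold change from NC in each treated group. HBEGF had 25.8, 38.0 and 36.2 CPM in the M-BSG-Hot libraries, 42.7, 42.0 and 39.1 CPM in M-BSG and 61.2, 59.6 and 57.7 CPM in BSG, against 15.2, 13.4 and 15.0 CPM in NC. No group overlapped another: every BSG library lay above every M-BSG library, every M-BSG library above every M-BSG-Hot library and every M-BSG-Hot library above NC. The lowest treated library was M-BSG-Hot 1, which is not among those counted as standing apart. Within M-BSG-Hot, replicates 1 and 3 differed most from each other over all genes.

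In M-BSG-Hot, HBEGF averaged 33.3 ± 6.55 CPM, against 14.5 ± 0.991 CPM in NC (SD, n = 3 each). The log2 fold change was 1.20 (standard error 0.122), a 2.29-fold higher level, with an adjusted p of 4.98e-05 (edgeR's quasi-likelihood test, Benjamini-Hochberg adjustment over all genes tested). In M-BSG it averaged 41.3 ± 1.89 CPM, and the log2 fold change over NC was 1.50 (standard error 0.122; edgeR adjusted p = 5.93e-06), or 2.84-fold. In BSG it averaged 59.5 ± 1.75 CPM, and the log2 fold change over NC was 2.03 (standard error 0.123; edgeR adjusted p = 1.45e-07), or 4.09-fold. The 3 comparisons share the NC libraries. All 3 calls held in each of the 21 alternative fits, with log2 fold changes of 1.11 to 1.35 in M-BSG-Hot, 1.45 to 1.54 in M-BSG and 1.93 to 2.07 in BSG. In bulk RNA, a change in the number of cells that express a gene and a change in RNA per cell cannot be told apart.

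Among the treated groups, HBEGF was lower in M-BSG-Hot than in BSG, by a log2 fold change of -0.83 (standard error 0.118; edgeR adjusted p = 0.00334), and this call also held in all 21 alternatives. M-BSG against BSG gave -0.53 (95% interval -0.78 to -0.28), which did not pass the adjustment (edgeR adjusted p = 0.202, unadjusted 0.000513), although it did with DESeq2 (adjusted p = 0.0112), without M-BSG-Hot 1 (0.0124) and without the 3 libraries that stood apart (0.0461). Over all alternatives this adjusted p ranged from 0.0112 to 0.896. M-BSG-Hot against M-BSG gave -0.31 (95% interval -0.56 to -0.05; edgeR adjusted p = 0.422). Neighbouring treated groups did not overlap in their libraries, but among the treated groups only M-BSG-Hot against BSG passed the test.

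The summed level of a list of immune cell markers was low and stood in the same order of groups as HBEGF. Of its 7 genes 5 were in the tables, and their summed level was 0.652 to 0.760 CPM in M-BSG-Hot, 1.17 to 1.48 CPM in M-BSG and 1.78 to 2.05 CPM in BSG, against 0.473 to 0.709 CPM in NC, so that M-BSG-Hot overlapped NC. Most of it was CD14, a monocyte surface receptor, while HLA-DRA was at 0 in M-BSG, BSG and NC and AIF1 was at 0 in M-BSG-Hot. The part of this in the HBEGF values was not tested.

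**Figure D2:**
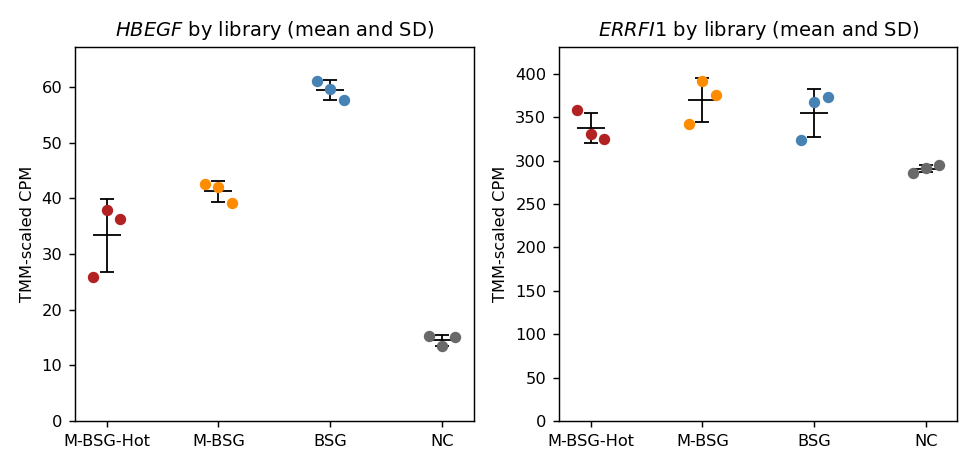
TMM-scaled CPM of HBEGF and ERRFI1 in each library, with the mean and SD of each group of 3 and both axes starting at 0. The HBEGF groups do not overlap, with BSG at 57.7 to 61.2 CPM and NC at 13.4 to 15.2 CPM, whereas the ERRFI1 treated groups overlap each other and all lie above NC.

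The other ligands of the set were low and none of those tested was called against NC. TGFA, transforming growth factor alpha, had 4.62, 4.19 and 4.32 CPM in M-BSG-Hot, 5.07, 4.53 and 4.28 CPM in M-BSG and 4.14, 5.28 and 4.50 CPM in BSG, against 4.57, 4.65 and 5.81 CPM in NC. Its groups overlapped in all comparisons against NC, with log2 fold changes of -0.20, -0.12 and -0.11 in M-BSG-Hot, M-BSG and BSG (edgeR adjusted p = 0.533, 0.753 and 0.633). AREG, amphiregulin, had 16, 4 and 14 counts in M-BSG-Hot, 12, 14 and 12 counts in M-BSG and 7, 6 and 9 counts in BSG, against 18, 11 and 14 counts in NC. The 3 BSG libraries lay below all NC libraries, but at this depth the log2 fold change of -0.95 had a 95% interval of -2.0 to 0.10 and did not pass the test (edgeR adjusted p = 0.204). As background, an earlier human assembly carried a near-identical copy of AREG, and how such reads were counted is not given in the sources used here.

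EREG, epiregulin, was almost absent. It had 0, 1 and 1 counts in M-BSG-Hot, 0 in each M-BSG library and 1, 8 and 2 counts in BSG, against 0 in each NC library. An observed 0 leaves room for at most 3 counts, which is 0.0786 to 0.0871 CPM in these libraries and covers counting error only. EREG did not enter the test, and BSG 2 was its only library above that limit.

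HBEGF took a larger share of the 4 ligands in every treated library than in any NC library. Its share of the summed FPKM of HBEGF, AREG, EREG and TGFA was 88.6%, 93.9% and 92.2% in M-BSG-Hot, 92.7%, 93.0% and 93.0% in M-BSG and 95.9%, 94.8% and 95.2% in BSG, against 81.6%, 81.5% and 79.7% in NC. The lowest share in a treated library was that of M-BSG-Hot 1, the library with the lowest treated HBEGF. The ratio of EGFR to HBEGF in FPKM was 2.51, 1.39 and 1.17 in M-BSG-Hot, 0.853, 1.45 and 1.36 in M-BSG and 0.461, 0.835 and 0.804 in BSG, against 3.58, 4.61 and 4.26 in NC. The receptor transcript exceeded the ligand transcript in every NC and M-BSG-Hot library and fell short of it in every BSG library and in M-BSG 1. EGFR is the longer gene, at 11427 bases against 2358 for HBEGF, and libraries differed in how counts varied with gene length, as described below. In every group the library with the lowest ratio also had the lowest slope on gene length. The part of the length trend in these ratios was not tested.

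EGFR, the receptor that binds all 4 of these ligands, did not pass the test in any comparison. It had 315, 256 and 206 CPM in M-BSG-Hot, 176, 296 and 258 CPM in M-BSG and 137, 241 and 225 CPM in BSG, against 263, 299 and 310.1 CPM in NC. The spread inside each treated group was wide, and M-BSG-Hot and M-BSG overlapped NC, while all BSG libraries lay below all NC libraries. The log2 fold changes against NC were -0.17 in M-BSG-Hot (edgeR adjusted p = 0.740), -0.26 in M-BSG (0.592) and -0.53 in BSG (0.113; 95% interval -0.99 to -0.07).

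The spread of EGFR within groups stood beside a difference between libraries in how counts varied with gene length. In each library the difference of log2 CPM from the mean of the 12 libraries was regressed on log2 gene length over all tested genes. EGFR is 11427 bases long in the lengths behind the deposited FPKM, longer than 93.6% of tested genes. In each of the 4 groups the library with the lowest slope, M-BSG-Hot 3 (-0.0669), M-BSG 1 (-0.0834), BSG 1 (-0.181) and NC 1 (0.00327), was also the library with the lowest EGFR. With the length trend removed, an alternative added after seeing the data, the BSG difference was -0.32 (edgeR adjusted p = 0.0758), and without the 3 libraries that stood apart it was -0.33 and passed (edgeR adjusted p = 0.0133), as it did with no filter on low counts (0.0360). Over the 21 alternatives the adjusted p ranged from 0.0133 to 0.369, and the part of the length trend in the EGFR values was otherwise not tested.

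**Figure D3:**
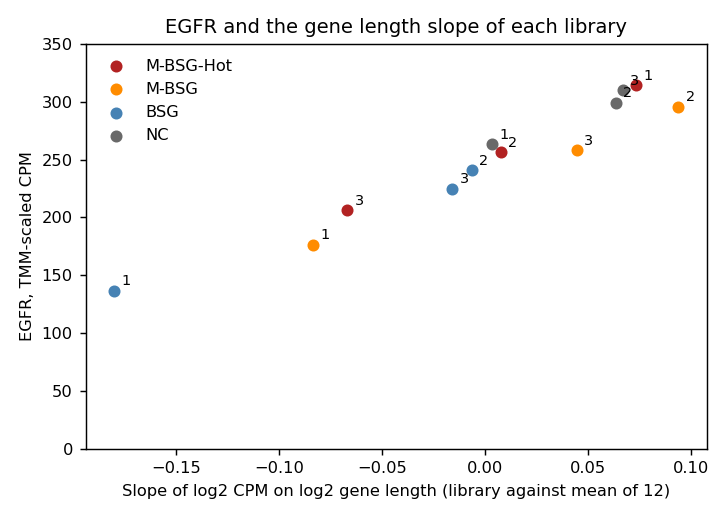
TMM-scaled CPM of EGFR in each library against that library's slope of log2 CPM on log2 gene length relative to the mean of the 12 libraries, with points numbered by replicate. BSG 1, M-BSG 1 and M-BSG-Hot 3 have the lowest slopes and the lowest EGFR, at 137, 176 and 206 CPM.

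ERBB2, the co-receptor with no known ligand of its own, did not pass the test in any comparison. It averaged 32.4 ± 0.251 CPM in M-BSG-Hot, 30.6 ± 0.839 CPM in M-BSG and 27.9 ± 2.74 CPM in BSG, against 32.2 ± 2.31 CPM in NC (SD, n = 3 each). The log2 fold change in BSG was -0.21 (edgeR adjusted p = 0.122), and the call was made only when BSG 2 was left out (0.0494, of an adjusted p between 0.0494 and 0.474 over the alternatives). ERBB3, a receptor for neuregulins with little kinase activity of its own, had 22, 21 and 8 counts in M-BSG-Hot, 10, 33 and 19 counts in M-BSG and 19, 26 and 12 counts in BSG, against 19, 18 and 39 counts in NC. Its groups overlapped throughout, and the adjusted p against NC was 0.614 in M-BSG-Hot, 0.837 in M-BSG and 0.608 in BSG (edgeR). A difference in ERBB3 was not detectable at this depth, where the 95% intervals of the log2 fold change reached from -1.64 to 0.52 in M-BSG-Hot and from -1.47 to 0.66 in BSG.

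ERRFI1, the feedback inhibitor with the highest level of the set, was modestly higher in M-BSG and BSG. It had 358, 331 and 325 CPM in M-BSG-Hot, 342, 392 and 376 CPM in M-BSG and 324, 368 and 374 CPM in BSG, against 286, 292 and 295 CPM in NC. All 9 treated libraries lay above all 3 NC libraries. The log2 fold change over NC was 0.35 in M-BSG (standard error 0.0784; edgeR adjusted p = 0.0160), or 1.27-fold, and 0.29 in BSG (standard error 0.0784; edgeR adjusted p = 0.0309), or 1.22-fold. In M-BSG-Hot it was 0.21 (95% interval 0.05 to 0.38) and did not pass (edgeR adjusted p = 0.163), although it did without the 3 libraries that stood apart (0.0119), with the length trend removed (0.00201) and with the length trend removed together with the replicate block (0.00395), in a range of 0.00201 to 0.445 over the alternatives.

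The ERRFI1 calls against NC were close to the threshold. In M-BSG the call was lost with scaling by library size only (edgeR adjusted p = 0.0728) and when NC 1 (0.0752), NC 2 (0.0702), NC 3 (0.0627), M-BSG 2 (0.0738) or M-BSG 3 (0.0693) was left out, in a range of 5.99e-05 to 0.0752 over the alternatives. In BSG it was lost with library size only (0.127), with no filter on low counts (0.0564) and without NC 1 (0.0945), NC 2 (0.102), NC 3 (0.0934), BSG 2 (0.0640) or BSG 3 (0.0942), in a range of 2.09e-05 to 0.127. The 3 treated groups were not told apart: M-BSG-Hot against M-BSG gave -0.13 (95% interval -0.30 to 0.04; edgeR adjusted p = 0.696), M-BSG against BSG 0.06 (-0.11 to 0.23; 0.764) and M-BSG-Hot against BSG -0.07 (-0.24 to 0.10; 0.709).

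LRIG1, the other inhibitor, did not pass in any comparison. It had 48.8, 53.7 and 51.0 CPM in M-BSG-Hot, 41.6, 55.6 and 49.4 CPM in M-BSG and 37.6, 51.8 and 46.4 CPM in BSG, against 47.7, 49.3 and 51.6 CPM in NC. M-BSG 1 and BSG 1, of the libraries that stood apart, held the lowest values, and all groups overlapped NC. The log2 fold changes against NC were 0.05, -0.02 and -0.13 in M-BSG-Hot, M-BSG and BSG (edgeR adjusted p = 0.881, 0.963 and 0.474).

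Counted over the set, HBEGF and ERRFI1 were the members called against NC. In M-BSG-Hot against NC 1 of the 8 tested members was higher, where 1.4% of all 15407 tested genes were called higher, and none was lower, where 3.51% were. In M-BSG against NC 2 of 8 were higher, against 3.22% of all tested genes, and none lower, against 3.13%. In BSG against NC 2 of 8 were higher, against 5.5%, and none lower, against 6.22%. At an unadjusted p under 0.05 in edgeR, 0 members were lower in M-BSG-Hot and in M-BSG and 2 in BSG, EGFR and ERBB2. Of all tested genes 10.5%, 10.3% and 15.8% were lower at that threshold. DESeq2 called 0 members lower in each of the 3, against 4.96%, 4.56% and 8.70% of all tested genes. Members whose groups did not overlap numbered 2 in M-BSG-Hot against NC (28% of all tested genes), 2 in M-BSG against NC (27.5%) and 4 in BSG against NC (38.7%); these few members cannot be set apart from that background. With scaling by library size only, fewer genes were called higher: of all called genes 18.1% were higher in M-BSG-Hot, 37.7% in M-BSG and 29.9% in BSG, against 28.4%, 50.7% and 46.9% with TMM scaling.

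The median log2 fold change over the tested members was -0.08 in M-BSG-Hot, -0.09 in M-BSG and -0.17 in BSG, beside 0.00, -0.01 and -0.02 over all tested genes. Between treated groups, no member was called in M-BSG-Hot against M-BSG, where 0.0974% of all tested genes were higher and 0.597% lower, or in M-BSG against BSG, where 0% were higher and 0.13% lower. At an unadjusted p under 0.05 in edgeR, HBEGF was the only member in both, lower, where 5.42% and 3.43% of all tested genes were lower. DESeq2 called it in M-BSG against BSG (0.240% of all tested genes lower) and no member in M-BSG-Hot against M-BSG (1.49%). In M-BSG-Hot against BSG 1 of 8 was lower, HBEGF, where 0.753% of all genes were called lower, and none was higher, where 0.0974% were. Higher at an unadjusted p under 0.05 in edgeR was 1, ERBB2 (6.24% of all tested genes), and DESeq2 called 0 higher (0.623%). Groups did not overlap for 2 members in each of these 3 comparisons, where 13.8%, 8.89% and 16.7% of all tested genes did not.

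**Figure D4:**
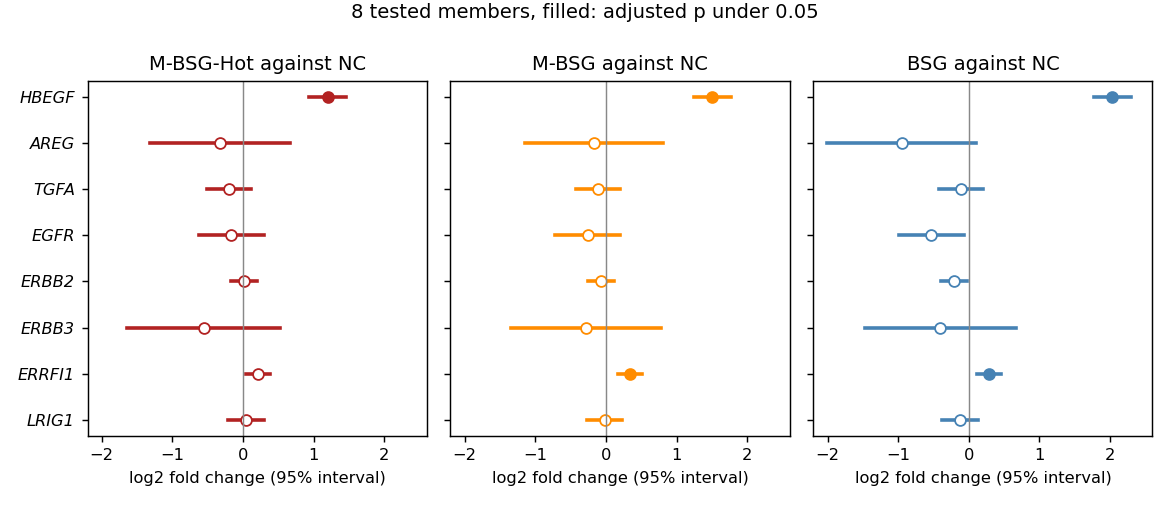
Log2 fold change against NC with its 95% interval for the 8 tested genes in M-BSG-Hot, M-BSG and BSG, filled where the adjusted p of edgeR's quasi-likelihood test was under 0.05. HBEGF is filled in all 3 panels at 1.20, 1.50 and 2.03, ERRFI1 in M-BSG and BSG, and the intervals of AREG and ERBB3 are the widest.

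Across the 12 libraries the genes whose log2 CPM ran most like that of each member were found among 10776 tested genes of at least 5 CPM, as a description of libraries that also share groups and the length trend. HBEGF ran most like LSMEM1 (Pearson r = 0.986), NFKBIA (0.983), the inhibitor of NF-kB, and DBR1 (0.982), which opens intron lariats. EGFR ran most like AGO1 (0.992), IGF1R (0.992), the receptor of insulin-like growth factors, and SETD7 (0.991), whose gene lengths of 13994, 13403 and 10970 bases are near the 11427 of EGFR, against a median of 3986 over tested genes. ERRFI1 ran most like NSUN2 (0.980), STIL (0.975) and MLLT10 (0.974), and LRIG1 most like FOXJ2 (0.940), EML6 (0.936) and ATP7B (0.928). ERBB2 ran most like SPNS2 (0.910), RAB40C (0.905) and CASZ1 (0.876), and for ERBB3, AREG and TGFA the closest genes were GMCL1 (0.889), ANKRD46 (0.829) and CNKSR3 (0.733). Within the set HBEGF ran with ERRFI1 (r = 0.751) and against EGFR (-0.624), and EGFR ran with LRIG1 (0.807).

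Around these genes, 73 others of the pathway were listed by role, of which 72 were in the tables and 66 were tested. In M-BSG-Hot against NC 2 were higher and 1 lower, where 1.4% and 3.51% of all tested genes were. In M-BSG against NC 2 were higher and 1 lower, where 3.22% and 3.13% of all tested genes were. In BSG against NC 4 were higher and 4 lower, where 5.5% and 6.22% of all tested genes were. The median log2 fold changes of the lists were 0.00, 0.01 and -0.09 in M-BSG-Hot, M-BSG and BSG. DESeq2 called 4 higher and 2 lower in M-BSG-Hot against NC (2.58% and 4.96% of all genes by DESeq2), 2 higher and 1 lower in M-BSG against NC (4.63% and 4.56%) and 4 higher and 8 lower in BSG against NC (9.53% and 8.70%). Between treated groups, 1 was higher and 1 lower in M-BSG-Hot against BSG (0.0974% and 0.753% of all tested genes). None passed in M-BSG-Hot against M-BSG, where 0.0974% of all tested genes were higher and 0.597% lower, or in M-BSG against BSG (0% and 0.13%). At an unadjusted p under 0.05 in edgeR, 4 were higher and 4 lower in M-BSG-Hot against M-BSG (3.42% and 5.42% of all tested genes). DESeq2 called 1 higher and 1 lower there (0.305% and 1.49%). In M-BSG against BSG 5 were higher and 1 lower unadjusted (3.33% and 3.43%), and DESeq2 called 0 (0.0844% and 0.240%).

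None of the 9 genes of ligand release, the proteases and partners that free the ligands from the membrane, was called by edgeR in any comparison. At an unadjusted p under 0.05 in edgeR, 1 was higher in M-BSG-Hot against NC (6.31% of all tested genes), 4 were lower in BSG against NC (15.8%), 2 were higher in M-BSG-Hot against M-BSG (3.42%) and 3 were higher in M-BSG-Hot against BSG (6.24%), and there was none in the opposite direction or in the other 2 comparisons. DESeq2 called 2 higher in M-BSG-Hot against BSG (0.623% of all genes by DESeq2) and 0 in the other 5 comparisons. Of the 8 other ligands and receptor only NRG1, NRG2 and ERBB4 were tested, while EGF itself had at most 9 counts in a library. NRG1 and NRG2 were not called by edgeR in any comparison. NRG1 averaged 16.7, 18.3 and 15.2 CPM in M-BSG-Hot, M-BSG and BSG, against 15.2 CPM in NC, and overlapped NC. NRG2 averaged 20.1, 19.8 and 18.4 CPM, against 16.8 CPM. Its treated libraries all lay above NC, where 28%, 27.5% and 38.7% of all tested genes did not overlap. DESeq2 called 1 of the 3 higher in M-BSG-Hot against NC and 1 in BSG against NC (2.58% and 9.53% of all genes by DESeq2). ERBB4, the other receptor for HBEGF, was higher in BSG, with 21, 25 and 24 counts, against 12, 3 and 6 counts in NC (log2 fold change 1.72, standard error 0.474; edgeR adjusted p = 0.0329). These counts are few, and the call was lost without NC 2 (0.142), NC 3 (0.133), BSG 1 (0.0738), BSG 2 (0.0559) or BSG 3 (0.0733), in a range of 0.0125 to 0.142 over the alternatives.

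Of the 16 genes of the relay to ERK, none was called in M-BSG-Hot or M-BSG against NC by edgeR or DESeq2. Of all tested genes edgeR called 1.4% higher and 3.51% lower in M-BSG-Hot and 3.22% and 3.13% in M-BSG. At an unadjusted p under 0.05 in edgeR, 1 was higher and 1 lower in M-BSG-Hot (6.31% and 10.5% of all tested genes). There was none in M-BSG (8.05% and 10.3%). Of the 12 tested genes of the PI3K, PLC and STAT relays, 2 were lower in BSG against NC, where 6.22% of all tested genes were. They were the adaptor GAB2 (log2 fold change -0.56, edgeR adjusted p = 0.0195) and the kinase AKT2 (-0.30, 0.0282). GAB2 was lost without NC 1 (0.0573), NC 3 (0.0850) or BSG 1 (0.0729), in a range of 0.00136 to 0.0850. AKT2 was lost without NC 1 (0.0780), NC 2 (0.0880), NC 3 (0.0960), BSG 1 (0.107) or BSG 3 (0.0593) and with the length trend removed without (0.165) or with (0.184) the replicate block, in a range of 0.00756 to 0.184.

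Among 15 tested genes of receptor shut-off, SOCS3, an inhibitor of cytokine receptor signalling, was higher in all 3 treated groups. It had 8.10, 9.28 and 9.29 CPM in M-BSG-Hot, 12.0, 12.1 and 12.9 CPM in M-BSG and 15.1, 17.5 and 14.0 CPM in BSG, against 5.25, 6.75 and 6.57 CPM in NC. Its groups stood in the same order as those of HBEGF and did not overlap, with log2 fold changes over NC of 0.52, 0.99 and 1.32 in M-BSG-Hot, M-BSG and BSG (edgeR adjusted p = 0.0276, 0.000202 and 1.04e-05), and of -0.80 in M-BSG-Hot against BSG (0.00529). The calls in M-BSG and BSG against NC and in M-BSG-Hot against BSG held in all 21 alternatives, while that in M-BSG-Hot against NC was lost with library size only (0.0666) and without NC 1 (0.122), NC 2 (0.0528), NC 3 (0.0662), M-BSG-Hot 2 (0.0857) or M-BSG-Hot 3 (0.0885), in a range of 0.00218 to 0.122. SOCS4, a related gene, was lower in M-BSG-Hot (log2 fold change -0.58, edgeR adjusted p = 0.0277), a call lost without NC 1 (0.0641), NC 2 (0.115), NC 3 (0.0921), M-BSG-Hot 1 (0.0587) or M-BSG-Hot 3 (0.124), in a range of 0.000133 to 0.124. PTPN2, a tyrosine phosphatase, was higher in BSG (0.34, edgeR adjusted p = 0.0399), a call lost with library size only (0.0728) and without NC 1 (0.0765), NC 2 (0.139), NC 3 (0.132), BSG 1 (0.136), M-BSG 3 (0.0511) or M-BSG-Hot 2 (0.0504), in a range of 0.0100 to 0.139.

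Among 11 genes of ERK feedback, SPRY2, a Sprouty inhibitor of receptor signalling, was higher in all 3 treated groups. It had 75.0, 70.0 and 72.2 CPM in M-BSG-Hot, 73.3, 81.4 and 79.8 CPM in M-BSG and 74.3, 70.5 and 72.4 CPM in BSG, against 55.4, 58.1 and 52.0 CPM in NC. All treated libraries lay above all NC libraries, and the log2 fold changes of 0.39, 0.50 and 0.39 in M-BSG-Hot, M-BSG and BSG (edgeR adjusted p = 0.00542, 0.000643 and 0.00316) were called in all 21 alternatives. SPRED3, another inhibitor of the relay, was lower in BSG (-0.51, edgeR adjusted p = 0.0206), a call lost without NC 1 (0.0725), NC 2 (0.0512), NC 3 (0.0645) or BSG 1 (0.0746), in a range of 0.00358 to 0.0746. DUSP5, a nuclear phosphatase of ERK, was lower in M-BSG (-0.28, edgeR adjusted p = 0.0207), a call lost with no filter on low counts (0.0513) and without NC 1 (0.110), NC 2 (0.0529), NC 3 (0.0766), M-BSG 1 (0.0731), M-BSG 2 (0.0793) or M-BSG 3 (0.0528), in a range of 0.000507 to 0.110. DUSP6, a cytoplasmic phosphatase of ERK named after its value was seen, was higher in M-BSG-Hot than in BSG, with 339, 288 and 292 CPM in M-BSG-Hot against 233, 233 and 246 CPM in BSG (log2 fold change 0.37, edgeR adjusted p = 0.0429), a call made in 9 of 21 alternatives and lost with the replicate block (0.0722), with library size only (0.0572) and without any one of 10 libraries (0.0574 to 0.199).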

How the data were processed

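RNA from 12 libraries of 143B cells, 3 in each of the groups M-BSG-Hot, M-BSG, BSG and NC, was built into libraries with a SMARTER mRNA-Seq kit after RNeasy Mini Plus extraction, per the labels' protocols. Count tables deposited by the authors give whole, raw numbers for 24180 gene symbols. The authors' deposited FPKM equal those counts over a gene length and the library total, which holds for 100% of values above 0 within a relative tolerance of 1e-06. GRCm38 and mm10, names of a mouse assembly, appear in the submitters' processing notes while the symbols are human, so the build is unresolved. Aligner, counting program and use of strand: not given in the sources used here.

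Counts were tested with edgeR 4.0.16 in R 4.3.3: TMM factors (0.951 to 1.05), filterByExpr with a minimum count of 10, and glmQLFit on the 12 libraries together, each group having its own mean (prior degrees of freedom 5.76, biological coefficient of variation 0.117). Genes with a Benjamini-Hochberg adjusted p under 0.05 within 1 of 6 comparisons were called. The standard error is the absolute log2 fold change over the square root of the F statistic. With 3 libraries a group, an exact two-sided permutation test of a single gene cannot go below 0.1, so none is given. On data simulated for BSG against NC (15198 genes), the fit called 76.8% of genes changed by a log2 fold of 1, 90.9% at 2 and 0.0667% of unchanged genes. Each gene was simulated independently, without the length trend or the libraries that stood apart. These rates therefore describe the fit in that setting only and do not carry over to the real libraries. Total counts were 34434993 to 38163152, and all replicate pairs differed by more than sampling noise (chi-square per degree of freedom 3.37 to 60.9).

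The 9 genes and the pathway lists were chosen with earlier results of these data known. Pathway genes given with a test value are those called against NC, up to 4 per list by adjusted p, of which 1 gene is not reported here, and DUSP6, named after its value was seen, and likeness names the 3 highest Pearson correlations per gene. NRG1 and NRG2, given by level only, were also named after their values were seen. Alternatives were other scalings, filters, DESeq2 1.42.0, a replicate block, each library left out and 3 libraries left out together. Those 3 stood apart in these same data, so their removal is not independent of the values tested. Removal of a gene length trend, with and without the block, was chosen after seeing the data.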

Additional observations from a re-analysis of the deposited data

How the results depend on the processing

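With the replicate number as a block, the members called were 1 higher in M-BSG-Hot against NC, 2 in M-BSG against NC, 2 in BSG against NC and 1 lower in M-BSG-Hot against BSG, as without it. Whether the numbers pair the libraries is not given by the labels and is not settled by these values. Of 18 same-numbered pairs 4 correlated above 0.1 in their deviations (-0.287 to 0.408). A library correlated best with its own number in 13 of 36 checks. The members called higher in M-BSG-Hot against NC became 2 without BSG 1, M-BSG 1 and M-BSG-Hot 3 and with the length trend removed, with or without the block, while those in M-BSG against NC became 1 with library size only and 1 to 2 with a library left out. In BSG against NC they became 1 with library size only and with no count filter and 1 to 2 with a library left out, and the members lower became 1 with no count filter and without the 3 libraries, and 0 to 1 with a library left out. In M-BSG against BSG the members lower became 1 with DESeq2 and without the 3 libraries, and 0 to 1 with a library left out. The cause was not tested.

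Counts of all called genes moved by over 1.5 times as follows. M-BSG-Hot against NC had 756, with DESeq2 1161, without the 3 libraries 1313 and at least 388 with a library left out. M-BSG against NC had 979, without the 3 libraries 1972, with the length trend removed 1488 and at least 543 with a library left out. BSG against NC had 1806, with DESeq2 2810 and at least 857 with a library left out. M-BSG-Hot against M-BSG had 107 and 25 to 276 over the alternatives, M-BSG against BSG 20 and 3 to 111, and M-BSG-Hot against BSG 131 and 51 to 391. With the length trend removed, 25.1% of the calls in M-BSG-Hot against BSG were higher, against 11.5% without.

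Changes of sign occurred only in log2 fold changes that were not called. In M-BSG-Hot against NC, library size only gave ERBB2 -0.057 and LRIG1 -0.020, and leaving out a library gave ERBB2 -0.048 to 0.041 and AREG -0.66 to 0.087. In M-BSG against NC, ERBB3 was 0.041 and LRIG1 0.081 without the 3 libraries, LRIG1 was 0.0048 with the length trend removed, and leaving out a library gave AREG -0.35 to 0.070, TGFA -0.18 to 0.0058, ERBB3 -0.77 to 0.15 and LRIG1 -0.12 to 0.094. In BSG against NC that gave TGFA -0.21 to 0.011 and ERBB3 -0.66 to 0.027. In M-BSG-Hot against M-BSG it gave EGFR -0.096 to 0.25, LRIG1 -0.037 to 0.17, ERBB3 -0.60 to 0.21 and AREG -0.49 to 0.25, and LRIG1 was -0.034 without the 3 libraries. In M-BSG against BSG it gave TGFA -0.078 to 0.098, ERRFI1 -1.27e-05 to 0.11, LRIG1 -0.0016 to 0.22 and ERBB3 -0.37 to 0.45, TGFA was 0.0097 with library size only and 0.0058 with no count filter, and ERRFI1 was -0.031 with the length trend removed, with or without the block. In M-BSG-Hot against BSG it gave TGFA -0.16 to 0.018 and ERBB3 -0.40 to 0.18, and ERBB3 was 0.21 without the 3 libraries. Low counts limit AREG, EREG, ERBB3 and ERBB4. A difference in AREG or ERBB3 smaller than their intervals was not detectable, EREG was not tested, and the ERBB4 call in BSG against NC rests on few counts.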

Other observations

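Transcripts that run antisense to EGFR or lie beside it were counted separately. EGFR-AS1, annotated on the opposite strand within EGFR, had 2 counts in M-BSG-Hot 1, 2 counts in NC 3 and 0 in the other 10 libraries. ELDR, a long non-coding RNA near EGFR, had 5 counts in M-BSG 1 and 0 in the other 11 libraries. Whether counting used strand is not given in the sources used here, so reads of EGFR and EGFR-AS1 could not be told apart with certainty.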
